A study of Mus musculus with 12 samples.

Results

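The 10 genes described here lie beside Mef2d on mouse chromosome 3 and were chosen by symbol: Nes, Gpatch4, Apoa1bp and Iqgap3 on one side, and Rhbg, Tsacc, Cct3, Tmem79, Smg5 and Paqr6 on the other. All 10 have a row among the 24390 genes of the deposited table. The question they address is whether an activator sent to Mef2d also moved the RNA of the genes around it. The data are 12 RNA-seq libraries of total RNA, made from the heart ventricles of 8-week-old C57BL/6 mice that fall into 4 groups of 3 libraries. WT_saline hearts were wild-type and received saline. WT_AAV hearts were wild-type and received AAV9TRISPR, an adeno-associated viral vector with guides against Mef2d. TG_saline hearts carried the transgene TG (Myh6-dCas9VPR) and received saline, and TG_AAV hearts carried the transgene and received the vector. The 3 groups other than TG_AAV are called the controls, and they hold 9 libraries.

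In CRISPR activation a Cas9 that cannot cut is fused to transcription activating domains (here VPR) and is brought by a guide RNA to the start of a gene, where it recruits the transcription machinery. Because the activating domains act on chromatin near the place where they are held, genes that share a neighbourhood or a promoter with the target are a usual check on how local the effect is. Mef2d itself encodes a transcription factor of the MEF2 family that acts in heart muscle growth and stress. The Myh6 promoter drives the transgene in heart muscle cells, whereas the libraries were made from whole ventricle, so RNA from cells without the activator is in every value. In such bulk samples, fewer cells of a type and less RNA per cell cannot be told apart. The labels do not say that the libraries of a group came from separate animals, so p-values measure the spread between these libraries.

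The neighbourhood is shown first by the 250 bases before the annotated start of 3 genes, in the RefSeq promoter table of build GRCm38.p6. Mef2d is shown as the target, Iqgap3 as its nearest listed neighbour, and Apoa1bp as the neighbour with the smallest p-value below. Capitals mark each CG dinucleotide. Mef2d lies at chr3:88142122-88142371 on the plus strand, Iqgap3 at chr3:88081801-88082050 on the plus strand, and Apoa1bp, listed under its current symbol Naxe, at chr3:88058496-88058745 on the minus strand.
Mef2d: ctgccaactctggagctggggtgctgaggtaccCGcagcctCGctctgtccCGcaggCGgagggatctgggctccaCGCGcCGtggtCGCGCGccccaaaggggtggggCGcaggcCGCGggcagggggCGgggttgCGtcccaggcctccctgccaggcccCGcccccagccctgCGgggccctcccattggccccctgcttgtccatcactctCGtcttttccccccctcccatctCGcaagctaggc
Iqgap3: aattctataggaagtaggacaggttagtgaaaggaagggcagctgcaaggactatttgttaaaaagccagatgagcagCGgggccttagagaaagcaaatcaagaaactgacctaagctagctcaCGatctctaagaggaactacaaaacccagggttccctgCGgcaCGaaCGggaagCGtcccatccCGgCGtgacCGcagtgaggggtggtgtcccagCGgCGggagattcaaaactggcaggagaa
Apoa1bp: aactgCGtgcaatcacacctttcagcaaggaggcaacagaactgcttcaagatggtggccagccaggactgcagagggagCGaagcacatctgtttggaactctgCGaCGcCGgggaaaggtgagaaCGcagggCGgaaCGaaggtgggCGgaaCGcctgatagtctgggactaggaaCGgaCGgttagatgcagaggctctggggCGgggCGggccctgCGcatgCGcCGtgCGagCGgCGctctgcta
These stretches hold 19 CG dinucleotides in Mef2d, 11 in Iqgap3 and 20 in Apoa1bp, against a median of 6 over 32851 promoters of the same length. The GC content was 73.2% in Mef2d, 52.4% in Iqgap3 and 62.0% in Apoa1bp.

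Tsacc and Cct3 start back to back on opposite strands, so the stretch between them is upstream of both genes. It runs over 135 bases at chr3:88297000-88297134, written on the plus strand, from the rightmost of 2 listed starts of Tsacc to the start of Cct3. Capitals mark the CCAAT box, searched as CCAAT on both strands.
Tsacc to Cct3: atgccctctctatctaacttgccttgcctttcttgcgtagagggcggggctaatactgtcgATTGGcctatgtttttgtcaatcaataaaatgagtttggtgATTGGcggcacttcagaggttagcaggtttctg
The stretch of 135 bases holds 2 CCAAT boxes. Of all promoter stretches, which are longer at 250 bases, 33.8% hold at least 1. The binding site of MEF2 factors, a longer motif known by that name, was found in 0 of the 8 members with an entry and in 2.92% of all promoter stretches. Gpatch4 and Rhbg are named only.

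The listed genes sit close to the target. In the GENCODE M21 annotation of GRCm38, the start of Iqgap3 is 60.4 kb from the start of Mef2d, and 21.3 kb separate the genes' ends. The starts of Apoa1bp, Gpatch4 and Nes are 83.9, 99.3 and 171.3 kb away on the same side. On the other side Rhbg starts 112.3 kb away, Tsacc 154.6, Cct3 154.7, Tmem79 193.8, Smg5 193.9 and Paqr6 222.2 kb away. Of the 10 genes, 6 are on the strand of Mef2d. Between Mef2d and the outermost listed gene, 3 further rows lie on the Iqgap3 side and 4 on the Rhbg side.

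Values are normalized counts, which the authors scaled between libraries. The value of 1 read could be read off each library's smallest step, which gave 10233281 to 14911986 reads a library. Every pair of libraries within a group differed by more than read sampling (chi-square over its degrees of freedom, 4.96 to 25.5). Of the wild-type libraries, WT_saline 3, WT_AAV 2 and WT_AAV 3 stood apart from the other 3 in an earlier analysis, and results are also given without them. The list named ventricular muscle markers gave the highest sums of any marker list, which does not by itself tell ventricle from atrium. The atrial transcript Myl7 ranged from 1.15 to 2042 normalized counts across libraries, being highest in WT_AAV 1, WT_AAV 3 and TG_AAV 1. A fit without these 3, or without the 3 wild-type libraries that stand apart, holds only 1 WT_AAV library. Only changes are given from those fits, without calls. Of the 10 members, 7 had a mean normalized count of 10 or more and entered the limma fit with 13030 genes. Rhbg, Tmem79 and Paqr6 were below that filter and are given separately.

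Mef2d, the targeted gene, was counted at 1989, 2231 and 1897 in the TG_AAV libraries. It stood between 833 and 1178 in the 9 controls, with a median of 973, so the groups did not overlap. The log2 change of log2(normalized count + 1) was 1.07 ± 0.09 (SE), a 2.10-fold difference (limma, Benjamini-Hochberg adjusted p = 5.01e-06).

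The changes of the tested neighbours against the mean of the controls ran from -0.26 to 0.76 on the log2 scale, below that of the target, and went in both directions. Apoa1bp and Iqgap3 rose and Nes fell among the 7 tested members, while Cct3, Tsacc, Smg5 and Gpatch4 did not pass the test. That is 3 of 7, or 42.9%, where 21.7% of all tested genes passed in either direction, 12.0% higher and 9.69% lower. The median log2 change was 0.25 over the 7 members and -0.0031 over all tested genes. Against TG_saline hearts, which hold the activator but no guides, 0 of the 7 passed, where 6.09% of all genes did.

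**Figure D1:**
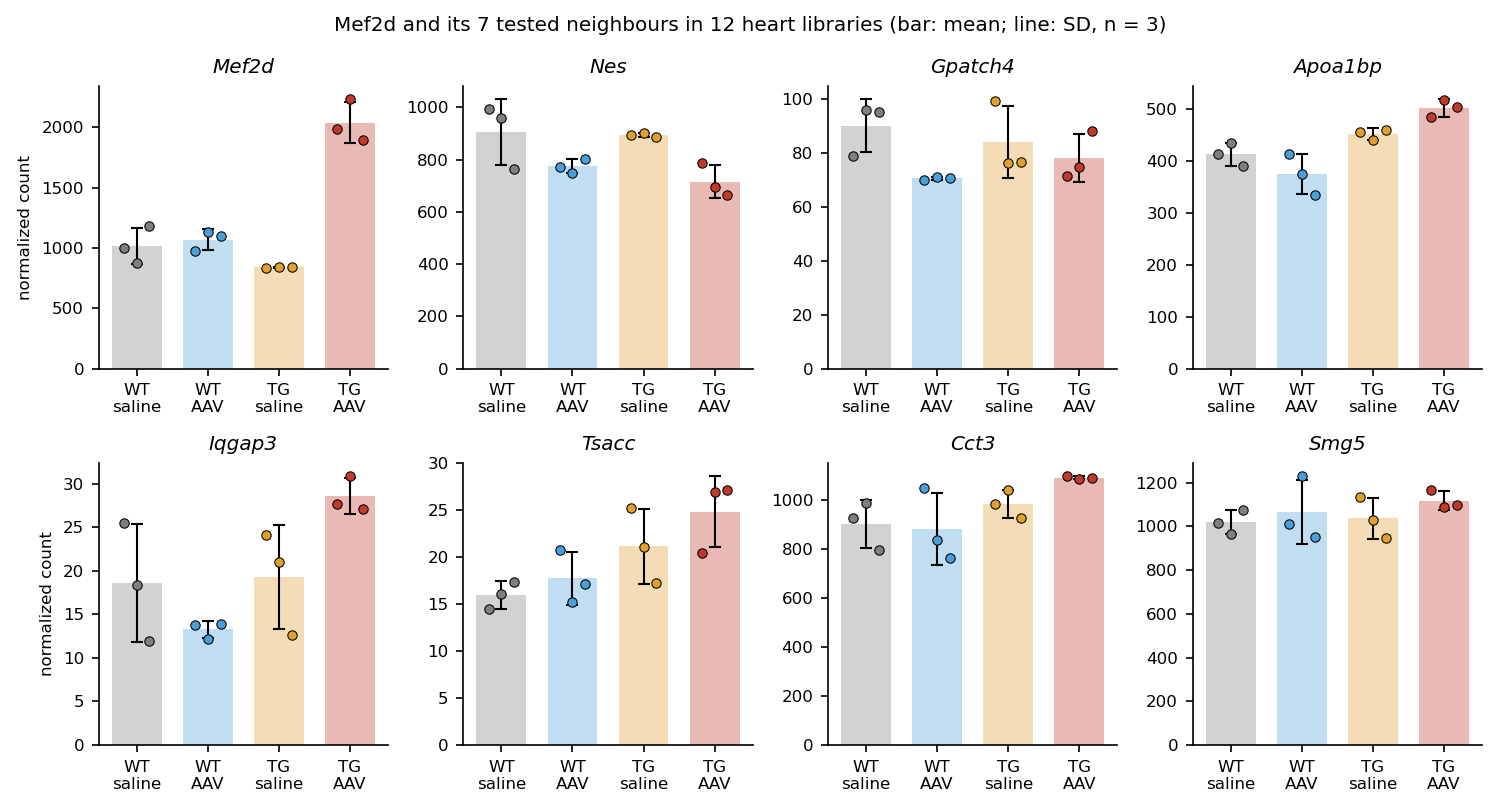
Normalized counts (vertical axis, from 0) of Mef2d and its 7 tested neighbours in each of the 12 libraries, by group; dots are libraries, bars are means and lines are SDs of 3 libraries. Mef2d reached 1897 to 2231 in TG_AAV hearts against 1178 at most in controls, while the TG_AAV means of the neighbours were 0.833 to 1.67 times their control means.

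Iqgap3, the nearest listed neighbour, encodes a scaffold protein of the IQGAP family that binds small GTPases and is known from dividing cells. Its normalized counts were 27.7, 30.9 and 27.1 in TG_AAV hearts. In WT_saline hearts they were 25.5, 18.3 and 11.9, in WT_AAV hearts 13.8, 12.2 and 13.9, and in TG_saline hearts 24.2, 21.0 and 12.7. All 3 TG_AAV libraries stood above all 9 controls, as they did for 10.2% of tested genes, but 2 saline groups spread nearly to them. The log2 change was 0.76 ± 0.25 (limma adjusted p = 0.0456), with a 95% interval from 0.22 to 1.30, and it rests on 145 reads in controls and 103 in TG_AAV hearts. The call is lost when any of 10 of the 12 libraries is left out, with adjusted p-values up to 0.159. These 10 are WT_saline 2 and 3, WT_AAV 1, 2 and 3, TG_saline 2 and 3, and TG_AAV 1, 2 and 3. In limma it is also lost without the filter on low values, at a change of 0.76 (adjusted p = 0.0762). In edgeR without that filter it was kept, at 0.75 (adjusted p = 0.0458). Without the 3 libraries of highest Myl7 the change was 0.82, and without the 3 wild-type libraries that stand apart the change was 0.66. Against TG_saline hearts alone it was 0.59 ± 0.31 (limma adjusted p = 0.303), and its interval from -0.08 to 1.25 overlaps that of Mef2d, whose lower end is 1.05.

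As Iqgap3 is known from dividing cells, other genes of the cell cycle are given beside it. Of 25 listed genes of the cell cycle, 19 were tested, and 0 rose and 0 fell in TG_AAV hearts against controls. Mki67, a marker of cycling cells, was 155, 125 and 129.7 in TG_AAV hearts and ranged from 84.7 to 257 in controls. The summed level of the list was 903 to 971 in TG_AAV hearts and 735 to 1359 in controls. Iqgap3 and Mki67 were both highest among controls in WT_saline 1, and the part of cycling cells in the Iqgap3 result was not tested. The other IQGAP genes, Iqgap1 at a log2 change of 0.03 and Iqgap2 at -0.15, did not pass the limma test (adjusted p = 0.823 and 0.659).

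Apoa1bp, now named Naxe, encodes an epimerase that repairs hydrated forms of NADH and NADPH and was first known for binding apolipoprotein A-I. Its normalized counts were 484, 517 and 505 in TG_AAV hearts. In TG_saline hearts they were 456, 439.7 and 461, in WT_saline hearts 414, 434 and 391, and in WT_AAV hearts 413, 375 and 335. The TG_AAV libraries stood above all 9 controls, and the TG_saline libraries were the next highest, each above every wild-type library. The log2 change against controls was 0.29 ± 0.07, or 1.22-fold (limma adjusted p = 0.0132). It was lost without TG_AAV 2 (adjusted p = 0.0716) or TG_AAV 3 (adjusted p = 0.0614). Against WT_AAV the change was 0.43 ± 0.09 (limma adjusted p = 0.0054), against WT_saline 0.28 ± 0.09 (adjusted p = 0.0417) and against TG_saline 0.15 ± 0.09 (adjusted p = 0.371). These comparisons share the TG_AAV libraries. Carkd, which encodes the dehydratase of the same repair pathway, had a log2 change of 0.04 against controls (limma adjusted p = 0.764).

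Nes encodes nestin, an intermediate filament protein of progenitor cells that is also made in endothelial cells and in vessel wall cells. Its normalized counts were 787, 694 and 664 in TG_AAV hearts. In WT_saline hearts they were 995, 959.5 and 763, in WT_AAV hearts 770.4, 751 and 804, and in TG_saline hearts 895, 900.4 and 888. Of the TG_AAV libraries, 2 lay below all controls and TG_AAV 1 lay within the WT_AAV range. The log2 change was -0.26 ± 0.08 (limma adjusted p = 0.0381), a ratio of 0.835. The call is lost when any 1 of these libraries is left out: WT_saline 1 and 2, TG_saline 1, 2 and 3, and TG_AAV 2 and 3. The adjusted p-values then reached 0.191. It was also lost after scaling to total reads, at a change of -0.15 (adjusted p = 0.208). Without the 3 libraries of highest Myl7, a fit with 1 WT_AAV library and so without a call, the change was -0.32. Against WT_AAV the change was -0.12 ± 0.10 (limma adjusted p = 0.439).

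Most markers of the cells known to make nestin did not pass the test. Of 16 endothelial markers, 3 fell in TG_AAV hearts against controls: Cdh5, an adhesion molecule of vessel lining cells, by 0.43, Esam by 0.32 and Vwf by 0.49 on the log2 scale (limma adjusted p = 0.00198, 0.0214 and 0.0471). That is 18.8% of the list, where 9.69% of all tested genes fell, and the median change of the list was -0.24. The summed level of the list was 18650 to 21391 in TG_AAV hearts and 21127 to 27237 in controls. Of 12 mural markers 1 fell, Abcc9, and 0 rose, with a median of -0.11. Of 10 ventricular muscle markers 4 fell (Pln, Ryr2, Tnni3 and Tnnt2) and 0 rose, which is 40.0%, with a median of -0.30. The summed level of the muscle list was 1727591 to 1853596 in TG_AAV hearts and at least 1886568 in every control. Of 8 tested markers of glia and neurons 3 rose and 1 fell, and 6 of 13 fibroblast markers rose. The part of these cells in the Nes result was not tested. Among 8 tested intermediate filament genes, Lmna (0.52), Synm (0.42) and Sync (0.25) rose while Nes was the only one that fell.

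Cct3 encodes a subunit of the CCT chaperonin, which folds actin and tubulin, and Tsacc, its back-to-back neighbour, encodes a co-chaperone of a testis kinase. Cct3 had normalized counts of 1099.8, 1088 and 1092 in TG_AAV hearts, above all 9 controls, which ranged from 766 to 1049.8 with a median of 927. Its log2 change was 0.25 ± 0.09 and missed the threshold (limma adjusted p = 0.0680). It passed without WT_AAV 1 (adjusted p = 0.0123) and after scaling to total reads (adjusted p = 0.00623). Tsacc was at 20.4, 26.9 and 27.1 in TG_AAV hearts, at 25.1, 21.0 and 17.2 in TG_saline hearts and at 14.4 to 20.7 in wild-type hearts. The TG_AAV and TG_saline ranges of Tsacc overlapped, and its change of 0.43 ± 0.20 did not pass (limma adjusted p = 0.145). Among the 8 CCT subunits, Cct8 rose by 0.26 (limma adjusted p = 0.0456) and the other 7 did not pass.

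Smg5 encodes a factor of nonsense-mediated decay, which removes transcripts with early stop codons, and Gpatch4 encodes a nucleolar protein with a G-patch domain. Smg5 was at 1168, 1088 and 1099 in TG_AAV hearts, within the control range of 949 to 1231. Its log2 change was 0.11 ± 0.08 (limma adjusted p = 0.379), and 0 of 10 nonsense-mediated decay genes passed. Gpatch4 was at 71.5, 74.7 and 88.3 in TG_AAV hearts, within the control range of 70.1 to 99.6, with a change of -0.06 ± 0.12 (limma adjusted p = 0.789). The sign of the Gpatch4 change turned after scaling to total reads (0.05).

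**Figure D2:**
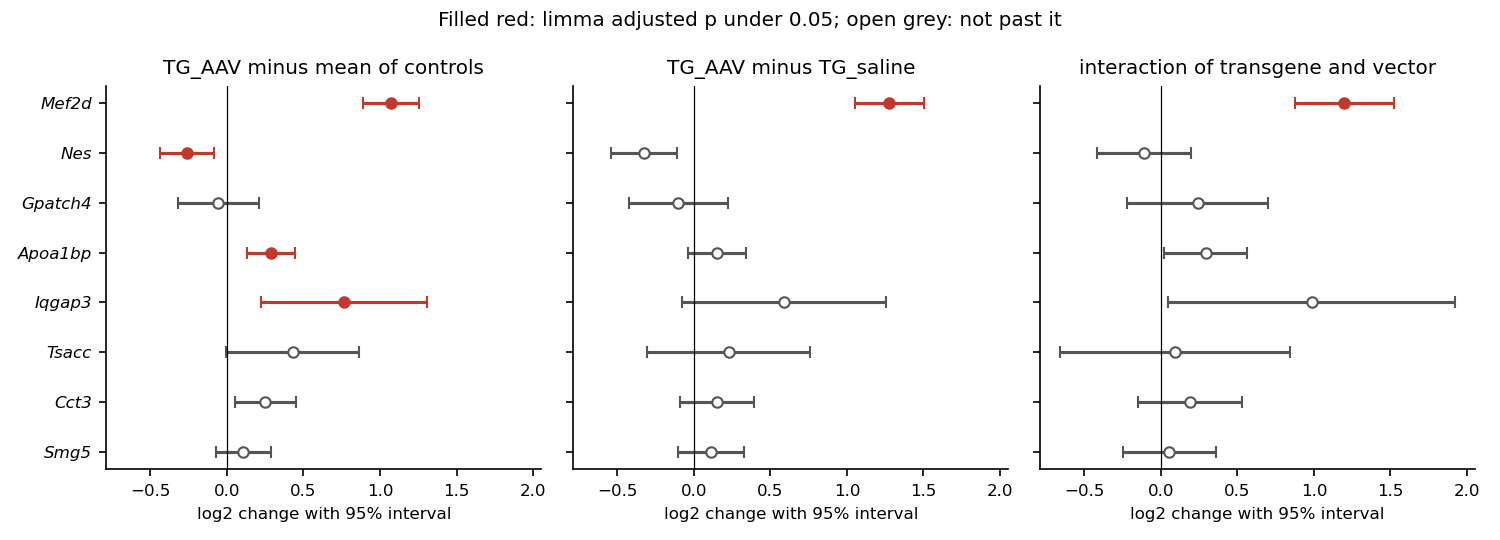
Log2 change (horizontal axis) with 95% intervals for Mef2d and its 7 tested neighbours against controls (left), against TG_saline (middle) and as the interaction of transgene and vector (right); filled red points passed the limma test. Mef2d passed in all 3 panels, and the neighbours passed only in the left one, at -0.26 for Nes, 0.29 for Apoa1bp and 0.76 for Iqgap3.

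The single-component groups and the interaction separate the vector, the transgene and their combination. The vector in wild-type hearts moved 0 of the 7 members in limma, where 0.0% of all genes passed; 1 member had an unadjusted p under 0.05 and edgeR and DESeq2 also called 0. The transgene alone moved 0 of 7 in limma, where 0.0998% of genes passed, with 0 at an unadjusted p under 0.05 and 0 by edgeR or DESeq2. The interaction was past the threshold for 0 of 7 members and for 0.852% of genes, with 2 members, Apoa1bp at 0.29 and Iqgap3 at 0.98, under an unadjusted p of 0.05 and 0 called by edgeR or DESeq2. Mef2d had an interaction of 1.20 ± 0.15 (limma adjusted p = 0.00162). Against WT_AAV, Apoa1bp and Iqgap3 rose, at 0.43 and 1.05 (adjusted p = 0.0313 for Iqgap3), where 18.8% of genes passed and 10.6% were higher. Mef2d stood at 0.93 in that comparison, below Iqgap3, whose call there is lost without WT_AAV 2 or 3 or without TG_AAV 1, 2 or 3. Against WT_saline, Apoa1bp rose and Nes fell by 0.33 (adjusted p = 0.0343), where 18.7% passed, 10.3% higher and 8.38% lower. The Apoa1bp call against WT_saline is lost without WT_saline 1 or 3, WT_AAV 2, or any TG_saline or TG_AAV library, and the Nes call without WT_saline 1 or 2 or TG_AAV 2 or 3.

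In the comparison with TG_saline, which differs from TG_AAV by the vector alone, each member has an interval. In limma the count of 0 includes 1 member, Nes, at an unadjusted p under 0.05, and edgeR called 0 while DESeq2 called Nes (adjusted p = 0.0419). Nes also passed without WT_saline 3 (limma adjusted p = 0.0198) and when the 2 groups were fitted alone (0.0197). The upper ends of the log2 intervals were 0.34 for Apoa1bp, 0.39 for Cct3, 0.33 for Smg5, 0.76 for Tsacc and 0.22 for Gpatch4, against a lower end of 1.05 for Mef2d. For Nes the interval ran from -0.54 to -0.11. Iqgap3, with few reads, is the one tested neighbour whose interval overlaps that of Mef2d. The Mef2d counts in TG_saline hearts (833, 844 and 839) were below every wild-type library. Their log2 change against WT_saline was -0.27 (limma adjusted p = 0.342). The Mef2d change was thus largest against TG_saline, at 1.28, and was 1.01 against WT_saline and 0.93 against WT_AAV.

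The 3 members below the filter are genes with few reads in heart. Rhbg encodes an ammonia transporter of the kidney and other epithelia. It had 1 read in the 9 controls, in TG_saline 2, and 2, 1 and 2 reads in the TG_AAV libraries. The ratio of reads, after the authors' scaling between libraries, was 11.7 with a 95% counting interval from 1.31 to 555. The exact two-sided permutation test of 3 against 9 libraries gave p = 0.00909, where the smallest possible is 0.00455. Reads were seen in all 3 TG_AAV libraries, at 1 or 2 each. Tmem79, a membrane protein of the skin barrier, had 10 reads in controls and 2, 5 and 5 in TG_AAV hearts (exact permutation p = 0.0227), and TG_AAV 1 lay within the control range. Tmem79 overlaps Glmp, on the opposite strand, which had 2804 reads over the 12 libraries against 22 for Tmem79. The strand setting of the counting is not given, and whether some Tmem79 reads came from Glmp was not tested. Paqr6, a membrane receptor for progesterone, had 44 reads in controls and 18, 19 and 19 in TG_AAV hearts (exact permutation p = 0.0136). Of the controls, TG_saline 2 came near with 14 reads, and its normalized count of 15.5 exceeded 2 of the TG_AAV libraries.

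**Figure D3:**
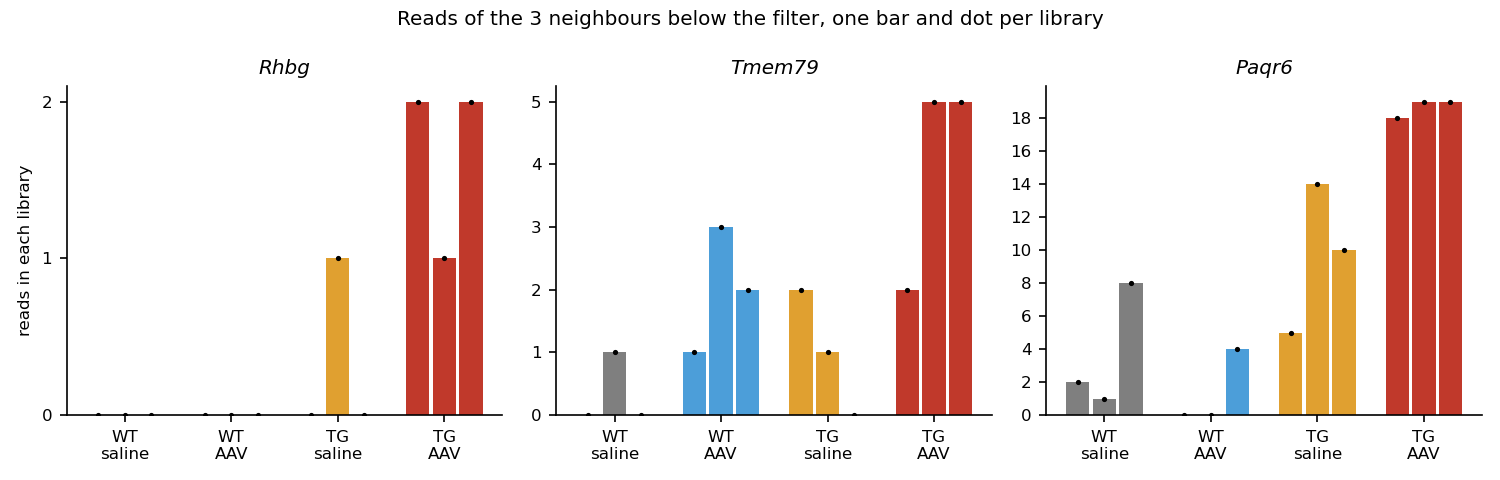
Reads (vertical axis, from 0) of Rhbg, Tmem79 and Paqr6 in each of the 12 libraries; each bar with a dot is a library, and bars of 0 show only the dot. TG_AAV libraries had 1 or 2 reads of Rhbg, 2 to 5 of Tmem79 and 18 or 19 of Paqr6, and 2 of these 3, TG_AAV 1 and 3, were the deepest of the 12.

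The permutation p-values are unadjusted, unlike the limma calls. The share of all genes below the filter that would reach them was not computed, so they are no result about the neighbourhood. Without TG_AAV 2, Tmem79 (exact permutation p = 0.127) and Paqr6 (0.0545) are no longer under 0.05. Tmem79 is also above it without TG_AAV 3 (0.0727). Without the filter, edgeR called Paqr6 at a log2 change of 1.97 (adjusted p = 0.0108) and did not call Tmem79 (adjusted p = 0.134) or Rhbg (adjusted p = 0.0854). Against TG_saline alone the exact permutation p was 0.2 for Tmem79, 0.2 for Rhbg and 0.3 for Paqr6, where 3 against 3 libraries cannot go below 0.1. Intervals on reads cover counting error only. Among the other tested genes of the PAQR family, Paqr8 rose by 0.88 and Paqr9 fell by 0.44 on the log2 scale (limma adjusted p = 0.00199 and 0.00114).

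The wider neighbourhood gives the local pattern its scale. Within 20 table rows on each side of Mef2d, 40 rows in all, 22 genes were tested. Of these, 4 rose and 2 fell against controls, which is 27.3%, and on the whole of chromosome 3 it was 23.7% of 617 tested genes. Besides the listed members, Lmna, the nuclear lamina protein lamin A/C, rose by 0.52 ± 0.07 (limma adjusted p = 0.00031) and starts 367.6 kb from Mef2d. Slc25a44, a mitochondrial carrier of branched-chain amino acids, rose by 0.43 ± 0.08 (adjusted p = 0.00197) at 282.8 kb. Pear1, a receptor of platelets and endothelial cells, fell by 0.47 ± 0.12 (adjusted p = 0.0151) at 318.1 kb.

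The median log2 change was higher near the target, while calls against controls were made both near it and 11 to 20 rows away. Against controls the median was 0.36 over the 4 tested genes within 5 rows of Mef2d, 0.11 over the 10 within 10 rows, which include those 4, and 0.0041 over the 12 tested genes 11 to 20 rows away. Against WT_AAV these medians were 0.45, 0.15 and 0.08, and against TG_saline 0.19, 0.13 and -0.04. The medians rest on few genes and were not tested. Lmna was at 2001, 2236 and 2127 in TG_AAV hearts and at 1187 to 1641 in controls, without overlap, although it lies 18 rows from Mef2d. Against TG_saline, Lmna (0.42, limma adjusted p = 0.0143) and Slc25a44 (0.36, adjusted p = 0.0437) were the 2 genes of the 22 that passed. That is 9.09%, against 6.81% on the chromosome and 6.09% of all tested genes. The 12 tested genes of the outer rows held 3 calls against controls and the 10 of the inner rows also held 3. Among all tested genes, 21.7% passed against controls in either direction and 12.0% were higher. The 4 tested genes within 5 rows are the listed members Gpatch4, Apoa1bp, Iqgap3 and Tsacc. Of these, 2 rose, Apoa1bp and Iqgap3, which are the calls already given above and no separate result. The nearest row on the Rhbg side, 1700113A16Rik, overlaps Mef2d on the opposite strand, and reads of overlapping genes may be split between them. It was below the filter and was not tested. Its mean normalized count was 3.92 ± 1.85 (SD) in controls, from 33 reads, and 2.37 ± 1.19 in TG_AAV hearts, from 9 reads. The ranges of the libraries overlapped.

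**Figure D4:**
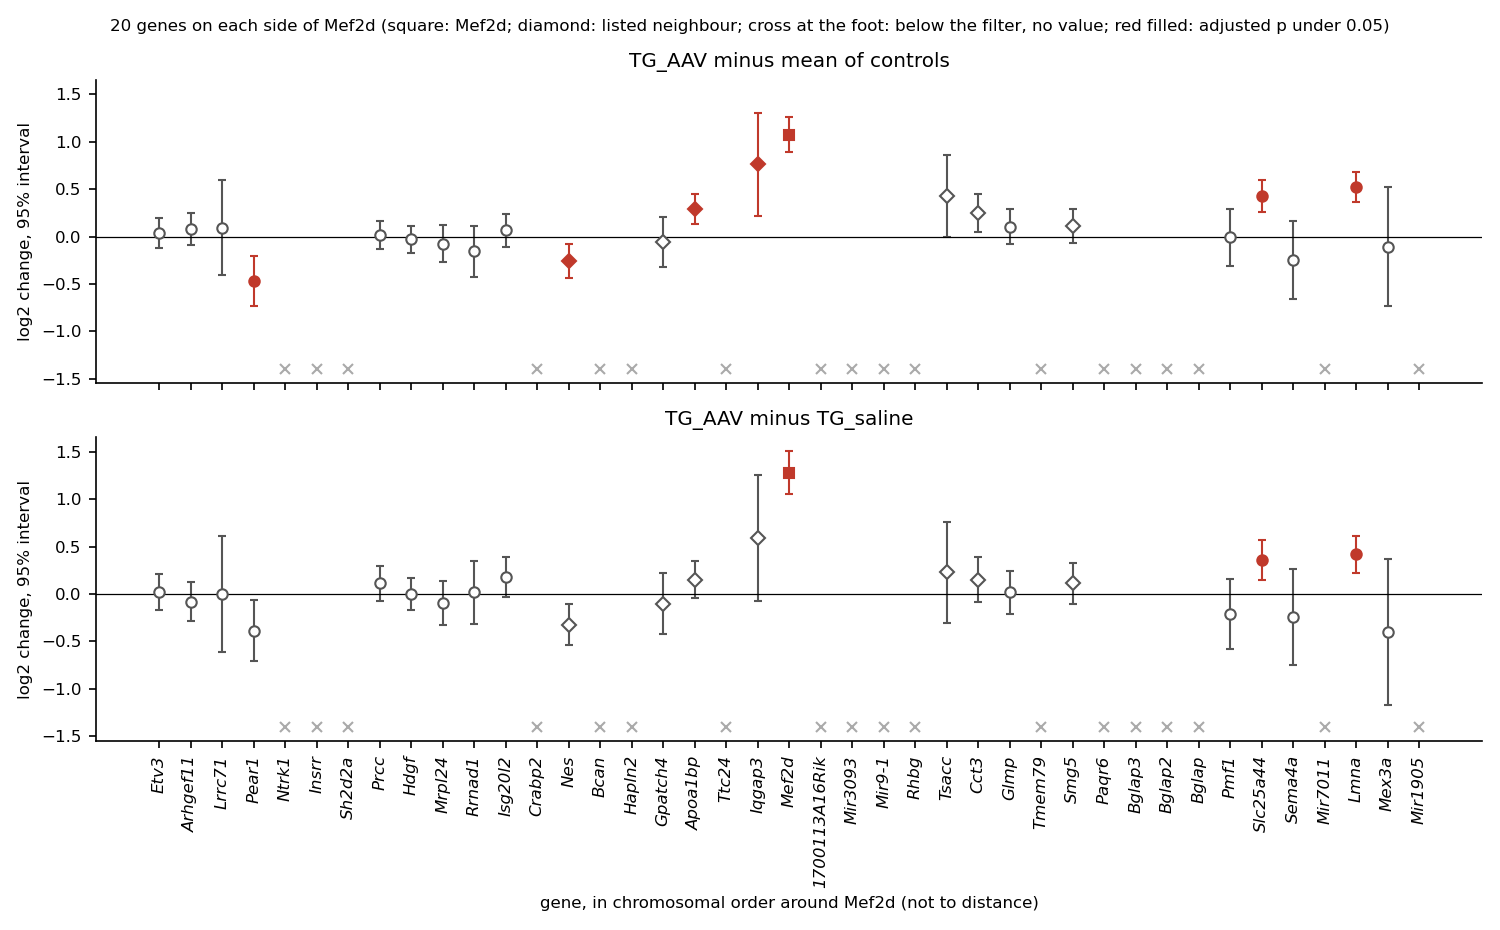
Log2 change with 95% interval (vertical axis) of the genes up to 20 rows to each side of Mef2d in chromosomal order (horizontal axis, not to distance), against controls (top) and against TG_saline (bottom); crosses mark genes below the filter. Mef2d stands at 1.07 and 1.28, Lmna at 0.52 and 0.42, and the listed neighbours between -0.33 and 0.76.

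As a description over the 12 libraries, the genes most like Mef2d in log2 level were Lama2 (Pearson r = 0.96), Abca8a (0.96), Col22a1 (0.96), Pde7a (0.95) and Atp1b4 (0.95). Of the tested members, Iqgap3 (0.54) came highest, at place 1897 among all tested genes, and Nes lowest (-0.76). The genes most like Apoa1bp were Pcyox1 (0.98), Metap1 (0.97), Rras2 (0.97), Pdlim1 (0.95) and Ormdl3 (0.95), and its closest listed neighbour was Cct3 (0.87) at place 292. Cct3 and Tsacc, which share the stretch shown above, had r = 0.67, a value not particular to this pair. Cct3 was closer to Apoa1bp (0.87) and Iqgap3 (0.73), and Tsacc was closer to Apoa1bp (0.69). The remaining pairs of either gene with a tested member were lower. All these points share the same 12 libraries and their scaling.

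Per kilobase of longest transcript, the levels of the members differed more than any change. On the scale of normalized counts per kb over the 12 libraries, Cct3 (489) and Apoa1bp (480) were highest, then Smg5 (238) and Nes (134), then Gpatch4 (36.6) and Tsacc (34.0). Paqr6 (4.63), Iqgap3 (3.46), Tmem79 (0.725) and Rhbg (0.222) followed, and Mef2d stood at 229.8. The ranges over the libraries overlapped between Cct3 and Apoa1bp, between Gpatch4 and Tsacc, between Paqr6 and each of Iqgap3, Tmem79 and Rhbg, and between Tmem79 and Rhbg. By group mean, Iqgap3 was above Paqr6 in WT_saline (3.23 against 2.40) and WT_AAV hearts (2.31 against 0.856). Paqr6 had the higher mean in TG_saline (5.86 against 3.35) and TG_AAV hearts (9.42 against 4.96). The Paqr6 means rest on 11 reads in WT_saline and 4 in WT_AAV hearts, and a turn of order between groups was not tested. Mef2d stood at 180.5 per kb in controls, below Smg5 (233.9), and at 377 in TG_AAV hearts, above Smg5 (251), and its range over all libraries overlapped those of Cct3, Apoa1bp, Smg5 and Nes.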

How the data were processed

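Ventricular RNA of 4 groups was measured in 12 libraries. The deposited table holds normalized counts per gene, a signal that the authors scaled between libraries. The submitters' processing notes name Bowtie2 2.0, DESeq2 and build mm9, with no role given, and the strand setting of the counting is not given in the sources used here. Of 24390 rows, 27 had symbols turned into dates and kept a row number.

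The members and gene lists were chosen with earlier results of these data known. Rows averaging 10 normalized counts or more (13030) were fitted with limma 3.58.1 (trend) in R 4.3.3 on log2(normalized count + 1), with 4 group means in one fit, Benjamini-Hochberg adjustment over all of them and a threshold of 0.05. For members below that filter, the difference of means was tested by an exact permutation test, two-sided, that enumerates all 220 assignments (Python 3.11.15). Its p-values were not adjusted. The fit was tested on simulated data.

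Whole reads, 10233281 to 14911986 a library, were recovered from the smallest step of each deposited column, all values lying within 0.01 of a whole read, and were used in edgeR 4.0.16 and DESeq2 1.42.0 as alternatives. In TG_AAV 2 a read is worth nearly 1 normalized count (0.996), so rounded values would look alike, and read-based results that use it carry that limit.

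Named by rule are the 10 members and Mef2d, the genes called within 20 rows of Mef2d, up to 4 called genes of each member's family, and the 5 genes of most like pattern. Other genes were named as context after their values were seen. Distances come from GENCODE M21 on GRCm38, which is not the authors' build.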

Additional observations from a re-analysis of the deposited data

Results flagged for a closer look

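The transgene and the vector combined on Mef2d by more than the sum of their separate effects: its interaction was 1.20 on the log2 scale, with a limma adjusted p of 0.00162. The 7 tested neighbours had no such difference past the threshold in limma. For Mef2d the transgene alone gave -0.27 (limma adjusted p = 0.342) and the vector alone 0.08 (limma adjusted p = 0.992).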

How the results depend on the processing

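Mef2d kept its direction and its call in all 25 alternatives, between 1.01 and 1.18 on the log2 scale. Leaving out the 3 libraries of highest Myl7 (WT_AAV 1, WT_AAV 3, TG_AAV 1) leaves 1 WT_AAV library. So does leaving out the 3 wild-type libraries that stand apart (WT_saline 3, WT_AAV 2, WT_AAV 3). No counts of calls are given for these fits. Of the neighbours against controls, the count that rose (2) became 1 with a filter of 50 and 4 after scaling to total reads. It lay between 0 and 2 when each library was left out. Without the filter on low values the count that rose was 3 in limma, Apoa1bp, Rhbg and Paqr6. Iqgap3 was lost there, while edgeR without the filter kept it (adjusted p = 0.0458). The count that fell (1) became 0 after scaling to total reads, and lay between 0 and 1 when each library was left out. Against TG_saline the count that fell (0) became 1, Nes, with quantile normalization, DESeq2 and only the groups compared. It lay between 0 and 1 when each library was left out. Against WT_AAV the count that rose (2) became 1 with a filter of 50, and lay between 1 and 3 when each library was left out. Against WT_saline the count that rose (1, Apoa1bp) became 2 without the filter, Tmem79 and Rhbg in place of Apoa1bp, 4 after scaling to total reads and 0 with only the groups compared, and lay between 0 and 2 when each library was left out; the count that fell (1) became 0 after scaling to total reads and 0 with only the groups compared, and lay between 0 and 1.

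Gpatch4 turned sign against controls after scaling to total reads (0.050) and without the 3 libraries of highest Myl7 (0.0029), and ran from -0.15 to 0.0055 when each library was left out; against TG_saline it ran from -0.19 to 0.024. The interaction of Nes ran from -0.18 to 0.0084 when each library was left out and was 0.016 without the 3 wild-type libraries. That of Tsacc ran from -0.040 to 0.22 and was -0.19 without the 3 wild-type libraries, and that of Smg5 ran from -0.018 to 0.17 and was -0.19 without the 3 libraries of highest Myl7. The fits without 3 libraries hold only 1 WT_AAV library, on which these interactions rest. The causes were not tested. Of the low members, edgeR without the filter gave a log2 change of 1.69 for Tmem79 and 2.97 for Rhbg, with adjusted p above the threshold; leaving out each library gave 0.78 to 1.34 for Tmem79, 0.99 to 1.23 for Rhbg and 1.32 to 1.81 for Paqr6.

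Scaling to total reads moved the median log2 change of all genes by 0.11 against controls and raised the share of calls that were higher from 55.4% to 78.8%. Relative to that median the changes were 0.29 for Apoa1bp, 0.76 for Iqgap3, 0.25 for Cct3, -0.26 for Nes and -0.05 for Gpatch4. Whether replicate numbers pair the libraries is not settled. Same-numbered libraries of different groups had correlations of deviations from -0.158 to 0.332, and other-numbered ones from -0.368 to 0.345. Over 0.1 were 8 of 18 same-numbered and 8 of 36 other-numbered pairs. With the replicate block 3 members rose against controls, Cct3 passing as well (adjusted p = 0.0392), 3 rose against WT_AAV, and no other call of a member changed.

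The calls over all genes moved by over 1.5 times in some alternatives. Against TG_saline they went from 794 to 1708 with only the groups compared. Between WT_AAV and WT_saline 0 became up to 11, with DESeq2. Between TG_saline and WT_saline 13 became 0 without TG_saline 2, 2 without WT_saline 3 or TG_saline 3, and up to 220 with DESeq2. The interaction count of 111 became 39 without TG_AAV 2 and 274 with DESeq2. The main counts were 2830 against controls and 2450 against WT_AAV. Leaving out each library gave 1618 to 3161 against controls and 400 to 1054 against TG_saline, and counts as low as 1450 against WT_AAV and 1497 against WT_saline, both without TG_AAV 3.

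Depth limits the low members, and 3 libraries a group limit every interval.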
